A study of Mus musculus with 16 samples.

Results

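TCRBV20-01, TCRBV23-01, TCRBV26-01 and TCRBV30-01 (Trbv20, Trbv23, Trbv26 and Trbv30) are variable (V) gene segments of the mouse T cell receptor β chain (TCRβ). They were selected by name from the V gene calls of T cells isolated from 16 tumors. They made up 4 of the 33 V genes that had productive templates and held 14550 of the 198953 rearrangements read, of which 8512 were productive, 5935 were out of frame and 103 carried a stop codon. All mice were female C57BL/6 and bore a subcutaneous tumor of KPC.Luc, a luciferase-expressing pancreatic ductal adenocarcinoma line. The 4 groups held 4 mice each. Control mice received scrambled peptide with isotype IgG, ANT008 mice received the VIP receptor antagonist ANT008 with isotype IgG, anti-PD-1 mice received scrambled peptide with anti-PD-1 antibody, and combination mice received ANT008 with anti-PD-1. Peptide was given daily at 10 µg and antibody every 3 days at 200 µg, for 10 days. The mice carried 1 tumor line at 1 site, and the ages of the mice and the marker expression of the isolated cells were not analysed here.

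A productive rearrangement joins V, D and J segments in frame and without a stop codon, a template is the estimated number of starting molecules of a rearrangement, and a clone here is 1 unique productive rearrangement. The samples held 7180 to 72588 productive templates (median 32564) and 2526 to 13939 unique productive rearrangements. The 4 genes together took 2.84% to 10.7% of productive templates (median 5.45%) and 6.20% to 8.63% of unique productive rearrangements. Their name was resolved without ties in every sample, and each was called with 1 allele. Labels give RNA as the extracted molecule whereas the text of the study also names DNA, so a template may be a transcript or a gene copy.

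The β chain is assembled in the thymus, where the recombinase joins a D to a J segment and then a V to the joined DJ, with bases trimmed from the ends and random bases inserted at the junctions. The V segment encodes the first and second complementarity-determining regions (CDR1 and CDR2) and the start of CDR3, the loop formed across the junction that contacts the peptide. A T cell whose first attempt was out of frame may carry that failed rearrangement silently beside a working one, so out-of-frame rearrangements record the use of a V gene in recombination without selection on the receptor it would encode.

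In the locus order of the GRCm38.p6 annotation, Trbv20 lies between Trbv19 and Trbv21, Trbv23 between Trbv22 and Trbv24, and Trbv26 between Trbv25 and Trbv27. Trbv30 lies between Trbv29 and Trbd1. The older names listed for the 4 genes are Tcrb-V15, Tcrb-V20, Tcrb-V3 and Tcrb-V18 in the same order. The 3′ ends of the V segments are shown because the V-encoded start of CDR3 differs between the members. They were read 5′ to 3′ from rearrangements with no trimmed V base, and the capitals mark the bases inside CDR3.
TCRBV20-01 end: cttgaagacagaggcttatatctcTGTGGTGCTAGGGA
TCRBV23-01 end: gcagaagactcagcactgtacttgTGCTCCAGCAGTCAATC
TCRBV26-01 end: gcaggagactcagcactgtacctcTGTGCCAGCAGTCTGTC
TCRBV30-01 end: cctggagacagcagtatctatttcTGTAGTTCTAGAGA
An untrimmed V segment gave 14 bases of CDR3 in TCRBV20-01 and in TCRBV30-01, and 17 bases in TCRBV23-01 and in TCRBV26-01. The 24 bases before CDR3 were the same in 98.9% of untrimmed TCRBV20-01 rearrangements and in 99.1% to 100% of those of the other members.

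The most frequent productive rearrangements of each member are shown next, since single clones took a large part of the template counts in some mice. Each is an 87-base read, 5′ to 3′, with the capitals marking the part of CDR3 inside the read. The first and second entry of a gene are the rearrangements that took the largest percent of productive templates in any mouse, and the third is the leading rearrangement of the CDR3 found in the most mice.
TCRBV20-01 with TCRBJ02-07, anti-PD-1 replicate 4: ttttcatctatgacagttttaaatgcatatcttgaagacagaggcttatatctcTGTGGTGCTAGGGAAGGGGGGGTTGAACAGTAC
TCRBV20-01 with TCRBJ01-04, control replicate 2: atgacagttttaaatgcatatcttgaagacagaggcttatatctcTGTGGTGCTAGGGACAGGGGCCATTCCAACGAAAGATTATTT
TCRBV20-01 with TCRBJ02-07, CDR3 in 16 mice: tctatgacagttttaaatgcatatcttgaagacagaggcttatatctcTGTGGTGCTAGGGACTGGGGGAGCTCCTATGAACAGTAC
TCRBV23-01 with TCRBJ02-07, control replicate 2: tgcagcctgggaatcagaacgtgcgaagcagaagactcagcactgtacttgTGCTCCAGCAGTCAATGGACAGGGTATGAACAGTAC
TCRBV23-01 with TCRBJ02-04, anti-PD-1 replicate 4: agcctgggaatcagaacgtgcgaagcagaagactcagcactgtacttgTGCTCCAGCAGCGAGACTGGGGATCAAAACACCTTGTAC
TCRBV23-01 with TCRBJ01-02, CDR3 in 3 mice: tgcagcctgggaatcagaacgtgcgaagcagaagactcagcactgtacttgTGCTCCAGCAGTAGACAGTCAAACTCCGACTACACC
TCRBV26-01 with TCRBJ01-03, combination replicate 3: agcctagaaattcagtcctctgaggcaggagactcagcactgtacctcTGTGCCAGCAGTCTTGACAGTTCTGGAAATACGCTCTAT
TCRBV26-01 with TCRBJ01-05, ANT008 replicate 1: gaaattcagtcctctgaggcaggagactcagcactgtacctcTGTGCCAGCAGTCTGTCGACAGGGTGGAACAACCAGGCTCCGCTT
TCRBV26-01 with TCRBJ02-04, CDR3 in 8 mice: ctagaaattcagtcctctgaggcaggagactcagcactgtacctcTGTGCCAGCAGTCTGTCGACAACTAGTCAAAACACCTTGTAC
TCRBV30-01 with TCRBJ02-01, anti-PD-1 replicate 3: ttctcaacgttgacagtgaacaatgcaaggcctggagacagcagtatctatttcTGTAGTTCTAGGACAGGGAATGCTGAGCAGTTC
TCRBV30-01 with TCRBJ02-07, control replicate 2: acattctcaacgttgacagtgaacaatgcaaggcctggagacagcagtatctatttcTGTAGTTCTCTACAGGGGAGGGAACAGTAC
TCRBV30-01 with TCRBJ02-07, CDR3 in 5 mice: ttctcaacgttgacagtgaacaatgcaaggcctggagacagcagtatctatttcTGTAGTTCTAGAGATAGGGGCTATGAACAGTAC

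All 4 members were used at low or middle levels, and their order was the same by templates and by unique rearrangements. TCRBV26-01 took 2.90% ± 1.73 of productive templates (mean ± SD, n = 16 mice) and 3.05% ± 0.320 of unique productive rearrangements, which ranked it 15 and 14 of 33. TCRBV20-01 took 2.10% ± 0.784 of productive templates and 2.97% ± 0.383 of unique productive rearrangements (ranks 18 and 15). These neighbours in the order differed by less than the spread between mice. TCRBV23-01 was rarer, at 0.446% ± 0.263 of templates and 0.682% ± 0.115 of unique rearrangements (both rank 21). TCRBV30-01 was the rarest of the 4, at 0.117% ± 0.0547 and 0.243% ± 0.0766 (ranks 23 and 22), and only 312 productive rearrangements of it were read in all mice together. The range of TCRBV23-01 by unique rearrangements, 0.440% to 0.818%, lay above that of TCRBV30-01, 0.0969% to 0.377%, and below those of both frequent members. The SD relative to the mean was smaller by unique rearrangements than by templates in each of the 4 genes, so template shares varied more from mouse to mouse than the number of different rearrangements did.

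The first comparison was whether treatment changed the template share of the 4 V genes. No member passed the test against control in any treated group, with 4 mice in each. TCRBV26-01, an intermediate-use segment, had the largest difference. It took 2.07%, 2.42%, 3.09% and 1.62% of productive templates in the control mice and 3.16%, 3.69%, 8.66% and 2.03% in the combination mice. Of these combination mice 3 lay above the highest control and the remaining one lay within the control range. The fold change was 0.93 on the log2 scale (SE 0.46, edgeR unadjusted p = 0.0496, adjusted p = 0.328), and the exact permutation form of Dunnett's test gave p = 0.233. Over all the settings tried the adjusted p of this comparison ran from 0.150 to 0.936.

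The highest of these values rested on 1 clone. In combination replicate 3, the TCRBV26-01 rearrangement with TCRBJ01-03 printed above held 3872 of the 5084 TCRBV26-01 templates, or 76.2%. It made up 6.60% of all productive templates of that mouse and was its second most frequent clone (rank 2). More cells of a clone and more templates per cell cannot be told apart in these samples. Without it, TCRBV26-01 took 2.07% of the productive templates there, within the range of the controls with all their clones. The leading TCRBV26-01 clone was then left out of the gene in every mouse but kept in the total of productive templates. The gene then took 1.87%, 1.66%, 2.19% and 1.37% in control and 2.80%, 3.22%, 2.07% and 1.90% in combination mice. Of the latter, 2 lay above the highest control, a count that depended on keeping the clones in the totals. A separate fit left out the leading clone of each V gene in every mouse, from the counts and from the totals. In that fit the TCRBV26-01 fold change was 0.24 on the log2 scale (edgeR adjusted p = 0.852), which is not the fold change of the percents just given. The groups were also close by unique rearrangements, with 3.00% ± 0.230 (SD, n = 4) in control and 2.90% ± 0.338 in combination mice. By that count the combination fold change was -0.06 on the log2 scale (edgeR adjusted p = 0.936), the opposite direction to that of templates.

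**Figure D1:**
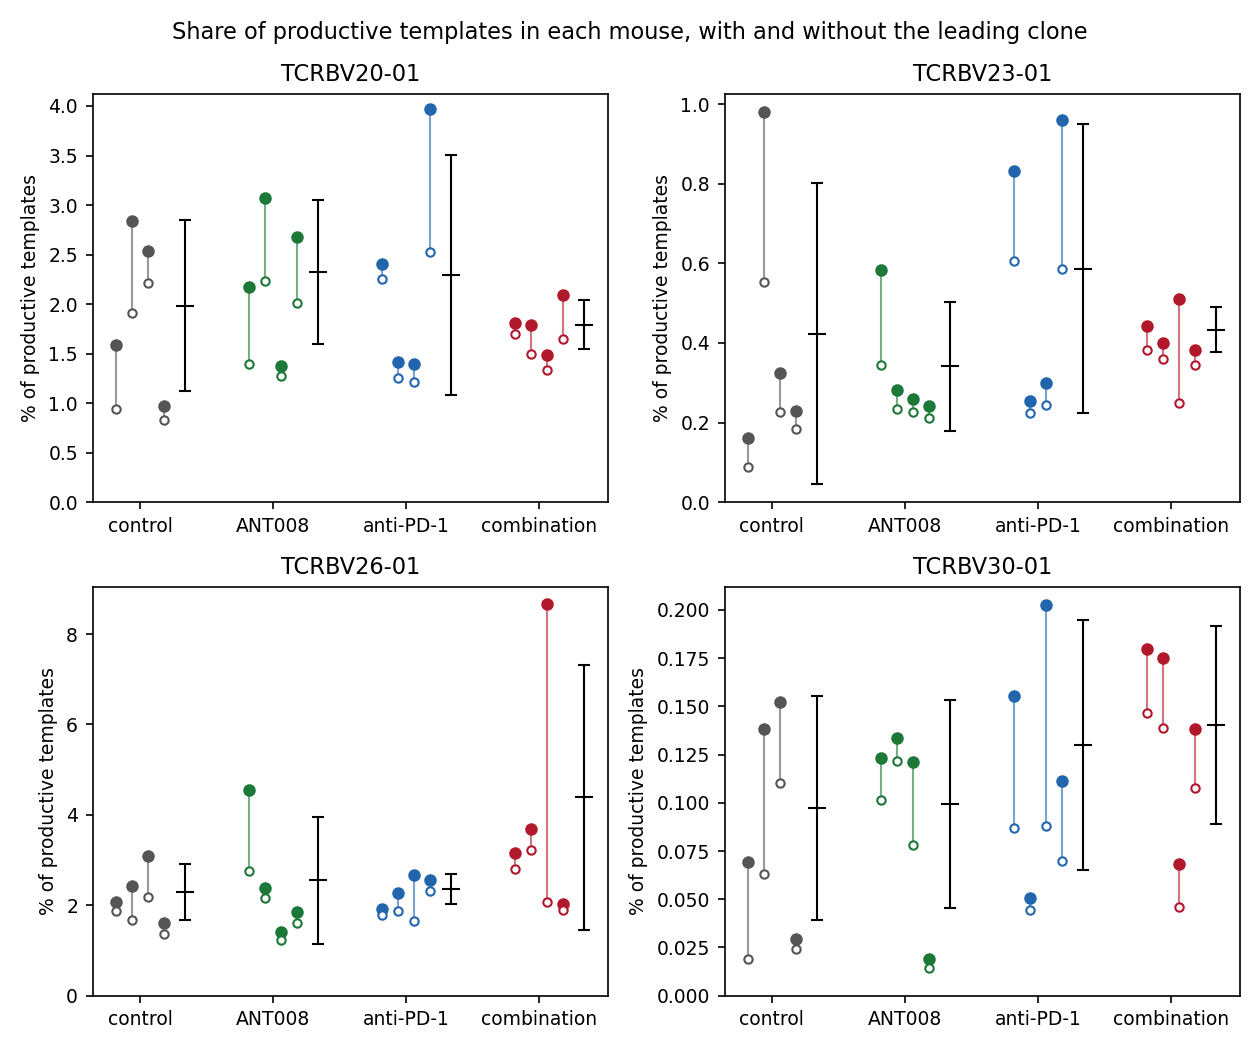
Percent of productive templates (y axis, linear from 0) of each V gene in each mouse, by treatment group. Filled points are all templates, and black bars are the mean ± SD of the filled points (n = 4). Open points joined to them leave out the most frequent clone of that V gene in that mouse, which stays in the total. Combination replicate 3 stands at 8.66% for TCRBV26-01 and falls to 2.07% without 1 clone.

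In the ANT008 and anti-PD-1 groups, TCRBV26-01 stood near control. Its ANT008 values were 4.55%, 2.39%, 1.40% and 1.84%, and its anti-PD-1 values were 1.92%, 2.28%, 2.67% and 2.56%. The first ANT008 mouse was the only one of these 8 above the highest control, and in it 1 clone with TCRBJ01-05 held 407 templates, or 39.4% of the gene. The log2 fold changes against control were 0.15 (SE 0.46, edgeR adjusted p = 0.9498) for ANT008 and 0.03 (SE 0.46, edgeR adjusted p = 1) for anti-PD-1.

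TCRBV20-01 did not differ between groups beyond its spread. It took 1.58%, 2.84%, 2.54% and 0.968% of productive templates in control mice and 2.17%, 3.07%, 1.38% and 2.68% in ANT008 mice. The anti-PD-1 mice had 2.41%, 1.41%, 1.39% and 3.97%, and the combination mice had 1.81%, 1.79%, 1.48% and 2.09%. All groups overlapped, and the combination values were the tightest, with an SD of 0.249 against 0.863 in control. The log2 fold changes were 0.23, 0.21 and -0.15 for ANT008, anti-PD-1 and combination (SE 0.46 each, lowest edgeR adjusted p = 0.8294).

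TCRBV23-01 took 0.162%, 0.980%, 0.325% and 0.228% of productive templates in control mice, and 0.582%, 0.282%, 0.260% and 0.241% in ANT008 mice. It took 0.832%, 0.253%, 0.299% and 0.961% in anti-PD-1 mice, and 0.443%, 0.400%, 0.510% and 0.382% in combination mice. No treated mouse exceeded the highest control, control replicate 2, where a clone with TCRBJ02-07 held 176 templates, or 43.6% of the gene. The log2 fold changes were -0.31, 0.45 and 0.03 (SE 0.64 each, lowest edgeR adjusted p = 0.727).

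TCRBV30-01 was counted from 4 to 147 templates per mouse, so its shares were imprecise. Control mice had 0.0692%, 0.138%, 0.152% and 0.0295%, ANT008 mice 0.123%, 0.134%, 0.121% and 0.0193%, anti-PD-1 mice 0.155%, 0.0506%, 0.203% and 0.111%, and combination mice 0.180%, 0.175%, 0.0682% and 0.138%. The log2 fold changes were 0.03, 0.43 and 0.52, with SEs of 0.81 to 0.82 (lowest edgeR adjusted p = 0.795). At this depth a change of the size seen could not be told from none.

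Among all V genes few passed the same test. In ANT008 against control 3.03% did (1 of 33, TCRBV24-01, named after its value was seen). In anti-PD-1 0% did (0 of 33, with 4 at unadjusted p under 0.05 in edgeR). By DESeq2, 0 of 31 passed there, with 3 at unadjusted p under 0.05. In combination 3.03% passed in edgeR (1 of 33, TCRBV14-01, likewise). Of the 12 member comparisons 1 reached an unadjusted p under 0.05 in edgeR and 0 did in DESeq2. The comparisons share the 4 control mice.

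The next comparison set productive against out-of-frame rearrangements, counted as unique rearrangements so that clone size did not enter. It sets how often a V gene is found in working receptors against how often it is found in out-of-frame rearrangements. If templates are transcripts, expression may also enter this ratio, which was not tested. TCRBV20-01 was lower among productive rearrangements in every mouse. It made up 2.49%, 2.98% and 3.96% of unique productive rearrangements (lowest, median and highest of 16 mice) and 3.48%, 4.35% and 5.01% of unique out-of-frame ones. There were 1.21 productive TCRBV20-01 rearrangements for each out-of-frame one (3616 to 2987), and the ratio was below that of all V genes of the same mouse in 16 of 16 mice. Its ratio ran from 0.908 to 1.57, whereas that of all V genes ran from 1.41 to 2.01. The difference was -0.57 on the log2 scale relative to all V genes together (SE 0.04, edgeR adjusted p = 6.58e-44). With 1 mouse left out the log2 difference stayed between -0.58 and -0.55. The edgeR adjusted p ran from 1.67e-44 to 6.03e-10 over the same fits. The difference held under each of the 22 alternatives, including templates in place of unique rearrangements, where it was -1.31 (edgeR adjusted p = 1.58e-06).

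TCRBV26-01 was lower by a small amount, -0.12 on the log2 scale (SE 0.04, edgeR adjusted p = 0.00426), with 3.05% ± 0.320 of productive and 3.18% ± 0.325 of out-of-frame rearrangements. Its ratio was below that of all V genes in 10 of 16 mice. The call was lost without combination replicate 3 (-0.08, edgeR adjusted p = 0.187), with DESeq2 (adjusted p = 0.0608) and by templates (-0.24, edgeR adjusted p = 0.390), and with only rearrangements of at least 2 templates the direction turned (0.08, edgeR adjusted p = 0.309). TCRBV23-01 had 1.76 productive for each out-of-frame rearrangement (836 to 476) and a log2 difference of -0.03 (SE 0.07, edgeR adjusted p = 0.737). TCRBV30-01 had 1.56 (312 to 200) and a log2 difference of -0.20 (SE 0.12, edgeR adjusted p = 0.182). Thus 2 of the 4 members passed, where 60.6% of V genes did (20 of 33, 10 in each direction). Among the 24 V genes with at least 160 unique productive rearrangements, TCRBV20-01 had the sixth lowest log2 difference (rank 6 from the lowest), so lower values than its own occurred in V genes outside the 4.

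**Figure D2:**
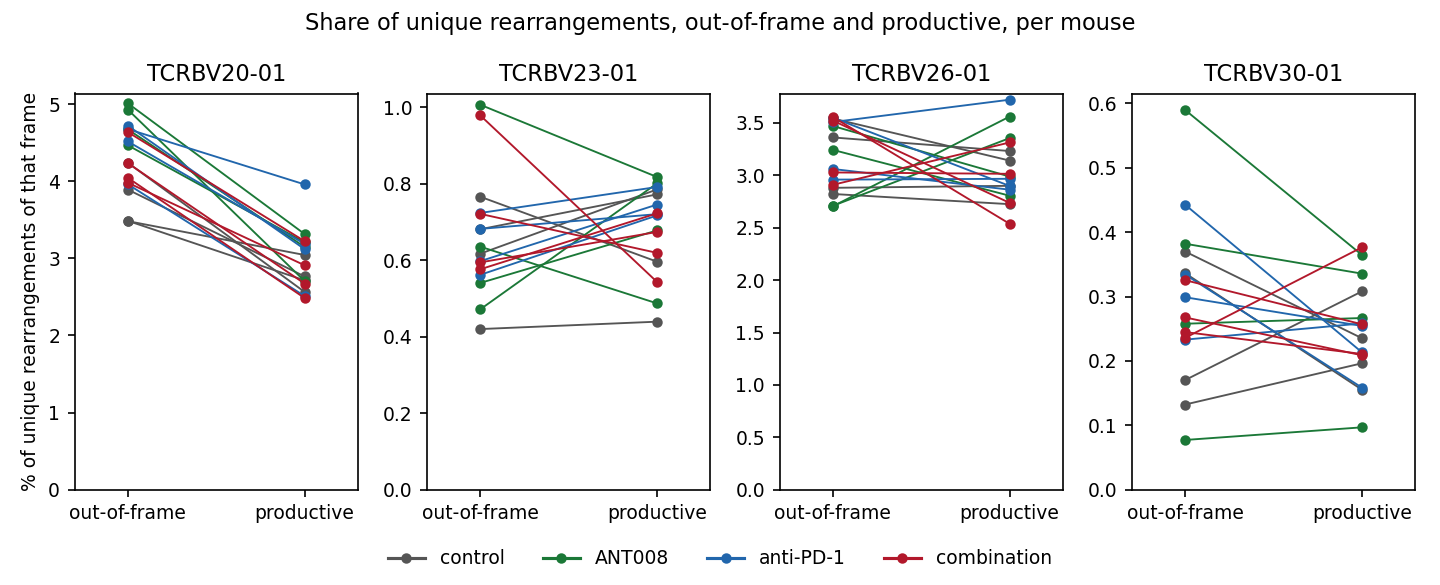
Percent of unique rearrangements of each V gene (y axis, linear from 0, scaled separately for each gene) among out-of-frame and among productive rearrangements, with 1 line per mouse coloured by group. All 16 lines of TCRBV20-01 fall from out-of-frame to productive, whereas lines of the other members run in both directions.

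Template counts among out-of-frame rearrangements were dominated by single rearrangements in some mice. TCRBV20-01 took 6.30% ± 5.41 of out-of-frame templates (SD, n = 16), with a range of 1.57% to 23.3%. The highest value came from combination replicate 3, where 1 out-of-frame TCRBV20-01 rearrangement with TCRBJ02-07 held 4538 of 5608 templates. That is the mouse with the TCRBV26-01 clone of 3872 productive templates, and an out-of-frame TCRBV26-01 rearrangement with TCRBJ02-04 held 1054 templates there too. Whether any of these came from the same cells was not tested.

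The productive to out-of-frame ratio of the members did not pass the test against control in any treated group. Over the 4 members, the log2 difference of the ratio ran from -0.10 to 0.10 for ANT008, -0.38 to 0.25 for anti-PD-1 and -0.20 to -0.07 for the combination, with SEs of 0.10 to 0.41. The lowest edgeR adjusted p was 0.917. By templates the differences were larger, from -1.99 to -0.42 over the 12 member comparisons, and none passed (lowest edgeR adjusted p = 0.170). With only rearrangements of at least 2 templates, those of TCRBV30-01 were -1.60 in ANT008, -1.36 in anti-PD-1 and -1.57 in combination mice, and none passed. None of the 33 V genes passed (0% in each of the 3 comparisons), and 0 reached an unadjusted p under 0.05.

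Junctions of productive TCRBV20-01 rearrangements were short. Their CDR3 averaged 39.4 bases ± 0.348 (SD, n = 16), from 38.7 to 39.9 across mice, against 42.1 in all other V genes of the same mice. The difference of -2.71 bases was below 0 in 16 of 16 mice (two-sided sign-flip permutation test, p = 3.05e-05, the smallest that 16 mice can give, adjusted p = 7.32e-05). TCRBV20-01 also had fewer inserted bases, 3.14 against 3.57 (difference -0.44, permutation test adjusted p = 0.000244), and fewer V bases trimmed, 2.19 against 2.66 (difference -0.47, permutation test adjusted p = 8.14e-05), both in 15 of 16 mice. Weighted by templates, the inserted-base difference turned to 0.05 and the trimming difference shrank to -0.05 (permutation test adjusted p = 0.876 and 0.816).

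TCRBV30-01 had the shortest CDR3 of the 24 V genes tested, 38.2 bases ± 1.94 (SD, n = 16) against 42.0 in the others. The difference was -3.82 bases and was below 0 in 16 of 16 mice (permutation test adjusted p = 7.32e-05). TCRBV20-01 was the second shortest (rank 2). Both are the members whose V segment gives 14 bases to CDR3. TCRBV30-01 had fewer inserted bases than the other V genes (3.05 against 3.56, difference -0.51, lower in 14 of 16 mice, permutation test adjusted p = 0.00324), and its trimming did not pass (2.95 against 2.64, permutation test adjusted p = 0.304). The call for inserted bases was lost by templates (-0.29, permutation test adjusted p = 0.276) and with only rearrangements of at least 2 templates (-0.52, permutation test adjusted p = 0.107). In control replicate 1, where TCRBV30-01 had 6 productive rearrangements, the leading one lost 21 V bases, more than the 14 that lie in CDR3. Its CDR3 of 21 bases thus kept none of the V-encoded start, and lacks the TGT that opens CDR3 in the TCRBV30-01 end printed above. It counts as productive by its frame, and whether it encodes a working receptor was not tested. That mouse had the highest mean trimming, 6.50 bases, and the lowest mean CDR3 length, 33.0 bases.

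TCRBV26-01 combined a slightly short CDR3 with heavy trimming of the V end. Its CDR3 averaged 41.0 bases, and the difference from the other V genes, -1.03 bases, was below 0 in 16 of 16 mice (permutation test adjusted p = 7.32e-05). It lost 3.46 V bases against 2.62 in the others, higher in 16 of 16 mice (difference 0.84, permutation test adjusted p = 4.88e-05), and gained fewer inserted bases, 3.23 against 3.57 (difference -0.34, permutation test adjusted p = 0.000146). Weighted by templates, the CDR3 difference was -0.14 bases and the inserted-base difference -0.32, and neither passed (permutation test adjusted p = 0.749 and 0.114). TCRBV23-01 did not pass for any of the measures, with a CDR3 of 42.2 bases against 42.0 (difference 0.19, permutation test adjusted p = 0.263). Differences between V genes were common. Of the 24 V genes tested, 87.5% passed for CDR3 length, 66.7% for inserted bases and 83.3% for V bases trimmed, so passing was not particular to the members.

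Out-of-frame rearrangements, described without a test, had similar lengths. The CDR3 averaged 39.6 bases in out-of-frame TCRBV20-01 rearrangements against 42.5 in those of the other V genes, and 39.2 against 42.4 for TCRBV30-01. For TCRBV26-01 it was 41.8 against 42.4, with 3.58 V bases trimmed against 3.04. Inserted bases averaged 3.55 against 4.17 for out-of-frame TCRBV20-01 and 3.61 against 4.16 for TCRBV26-01. For TCRBV30-01 they were 4.08 ± 1.07 (SD, n = 16) against 4.14, so its lower productive value was not clearly seen out of frame. Across treatment groups the mean productive CDR3 length of TCRBV20-01 lay between 39.1 and 39.5 bases, and that of TCRBV26-01 between 40.7 and 41.2.

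**Figure D3:**
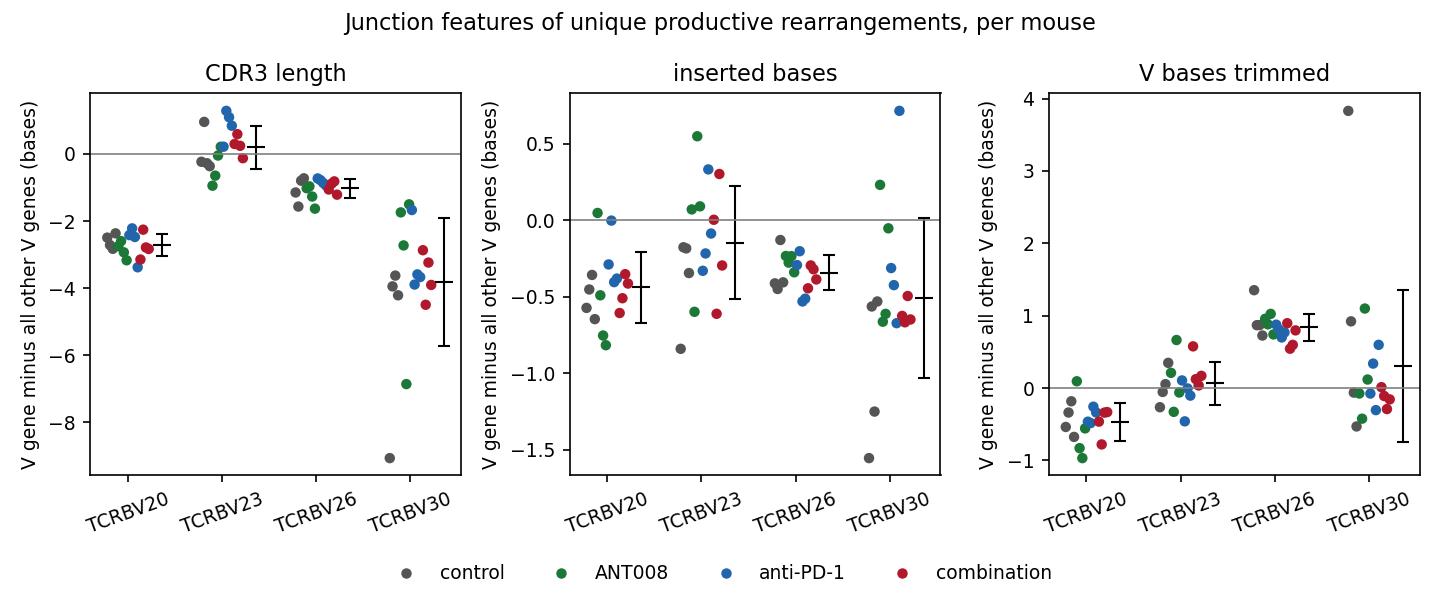
Difference in mean CDR3 length, inserted bases and V bases trimmed (y axes, bases) between each V gene and all other V genes of the same mouse, in unique productive rearrangements. Each point is 1 mouse coloured by group and black bars are the mean ± SD (n = 16); all TCRBV20-01, TCRBV26-01 and TCRBV30-01 points lie below 0 for CDR3 length and all TCRBV26-01 points lie above 0 for trimming.

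Pairing with J genes was compared as the share of a V gene's unique productive rearrangements that used each J, against the other V genes of the same mouse. The J genes form 2 clusters, each behind its own D segment. TCRBJ02-07 was the most used J of each member, at 20.6% ± 5.05 (SD, n = 16) of TCRBV20-01, 20.2% ± 5.03 of TCRBV23-01, 21.0% ± 3.61 of TCRBV26-01 and 34.7% ± 17.0 of TCRBV30-01. The other V genes used it at 21.1%.

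TCRBV20-01 and TCRBV26-01 shared a lean towards the first cluster. TCRBJ01-01 was used by TCRBV20-01 at 8.87%, 11.8% and 18.6% (lowest, median and highest mouse), or 3.68 points more than the other V genes, higher in 16 of 16 mice (permutation test adjusted p = 0.000603). It was used by TCRBV26-01 at 8.42%, 10.6% and 13.7%, or 2.11 points more, also in 16 of 16 mice (permutation test adjusted p = 0.000603). TCRBV26-01 also used TCRBJ01-03 more, at 7.07% against 4.83% (15 of 16 mice, permutation test adjusted p = 0.00118). Both used TCRBJ02-01 less, TCRBV20-01 at 10.5% against 13.1% (14 of 16 mice, permutation test adjusted p = 0.00828) and TCRBV26-01 at 10.8% against 13.1% (13 of 16 mice, permutation test adjusted p = 0.00738). TCRBJ02-05 was lower with TCRBV20-01 (9.31% against 11.3%, permutation test adjusted p = 0.00477), and TCRBJ02-03 was lower with TCRBV26-01 (6.39% against 8.62%, permutation test adjusted p = 0.00171). As a description, the second cluster took 61.7% ± 4.26 of TCRBV20-01 and 61.1% ± 3.14 of TCRBV26-01 rearrangements against 67.6% in the other V genes.

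**Figure D4:**
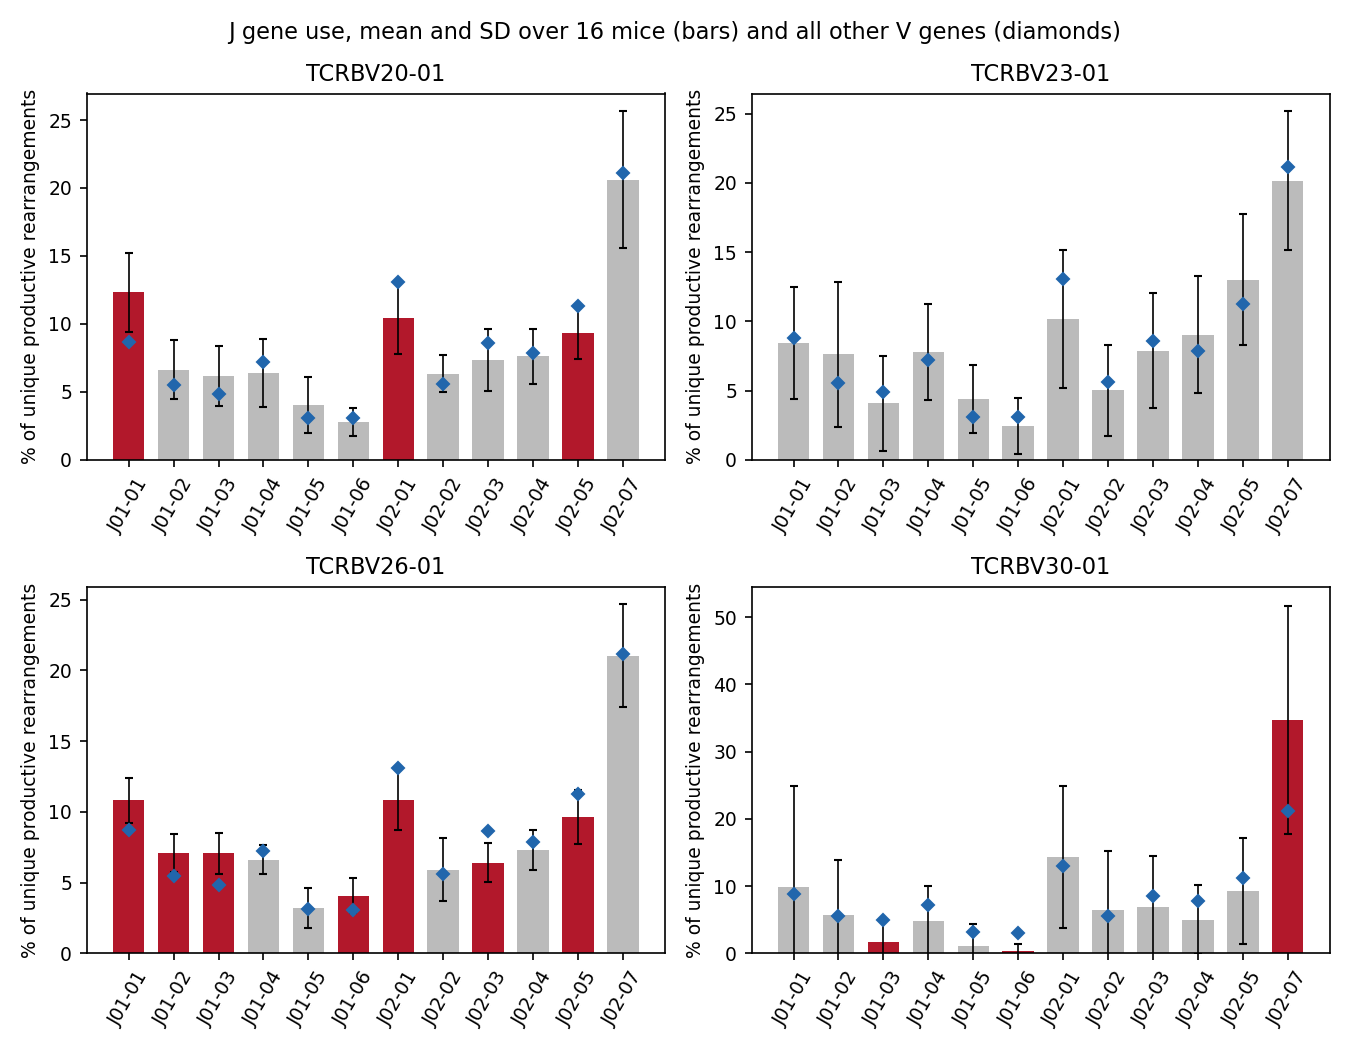
Percent of unique productive rearrangements that used each J gene (y axis, linear from 0), by V gene. Bars are the mean over 16 mice with the SD, cut at 0 where it reaches below, red bars passed the test against the other V genes and grey bars did not, blue diamonds are the other V genes, and the 2 J genes under 1% are left out. TCRBJ02-07 is the tallest bar in each panel and reaches 34.7% with TCRBV30-01.

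None of these 7 J differences passed in out-of-frame rearrangements. There, TCRBJ01-01 was 0.68 points higher with TCRBV20-01 (permutation test adjusted p = 0.511) and 1.33 points higher with TCRBV26-01 (permutation test adjusted p = 0.0881), and the second cluster took 61.1% and 61.4% against 65.8% and 65.7%. Whether the differences in productive and out-of-frame rearrangements were unequal was not tested. Weighted by templates, none of the 7 pairs above passed, and TCRBJ02-01 with TCRBV20-01 turned direction (0.52 points).

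TCRBV30-01 used TCRBJ02-07 more than the other V genes did, 13.6 points in the mean and higher in 13 of 16 mice (permutation test adjusted p = 0.0159). Pooled over mice it was 103 of 312 rearrangements, or 33.0% (95% Clopper-Pearson interval 27.8% to 38.5%, counting error only), against 21.1% in the other V genes. The out-of-frame share was 39 of 200, or 19.5% (14.2% to 25.7%), against 20.2%. TCRBJ01-03 made up 7 of 312 and TCRBJ01-06 made up 2 of 312, or 2.24% and 0.641%, against 4.95% and 3.10% (permutation test adjusted p = 0.0146 and 0.00118). Their pooled intervals were 0.907% to 4.57% and 0.0777% to 2.30%. Single mice gave only 4 to 36 TCRBV30-01 rearrangements. Most mice had neither TCRBJ01-03 nor TCRBJ01-06 with TCRBV30-01, so these p-values rest on few counts. By templates the TCRBJ02-07 difference fell to 1.75 points (permutation test adjusted p = 0.900). TCRBV23-01 passed for TCRBJ02-06 alone, at 0 of 835 rearrangements, which allows a share of up to 0.359% and so does not separate it from the 0.00958% of the other V genes.

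Over all pairs of V and J, 29.2% passed (98 of 336), and without the 2 J genes used at under 1% it was again 29.2% (84 of 288). On the second count TCRBV20-01 passed for 3 of 12 J genes, TCRBV26-01 for 7, TCRBV30-01 for 3 and TCRBV23-01 for 0 (0 of 12 after adjustment). The share of 7 of 12 in TCRBV26-01 was above the background and that of TCRBV23-01 below it, and neither was tested as a count.

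The leading clones, taken per mouse and gene, were mostly found in 1 mouse, least often those of TCRBV26-01. Over 16 mice, 14 of the 16 leading TCRBV20-01 clones, 15 of 16 of TCRBV23-01, 10 of 16 of TCRBV26-01 and 16 of 16 of TCRBV30-01 were found as the same rearrangement in no other mouse. By V gene and CDR3 amino acids, 13, 15, 6 and 16 of the 16 were found in 1 mouse only. The leading TCRBV26-01 clone was among the 10 most frequent productive clones of its mouse in 3 of 16 mice, that of TCRBV20-01 in 2, and those of TCRBV23-01 and TCRBV30-01 in 0. The leading clone held 6.12% to 40.5% of TCRBV20-01 templates and 6.28% to 76.2% of TCRBV26-01 templates. It held 9.42% to 51.2% of TCRBV23-01 and 9.09% to 72.2% of TCRBV30-01 templates. Most rearrangements were seen at 1 template, 69.9% ± 5.14 of TCRBV20-01 and 65.4% ± 4.21 of TCRBV26-01 (SD, n = 16).

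**Figure D5:**
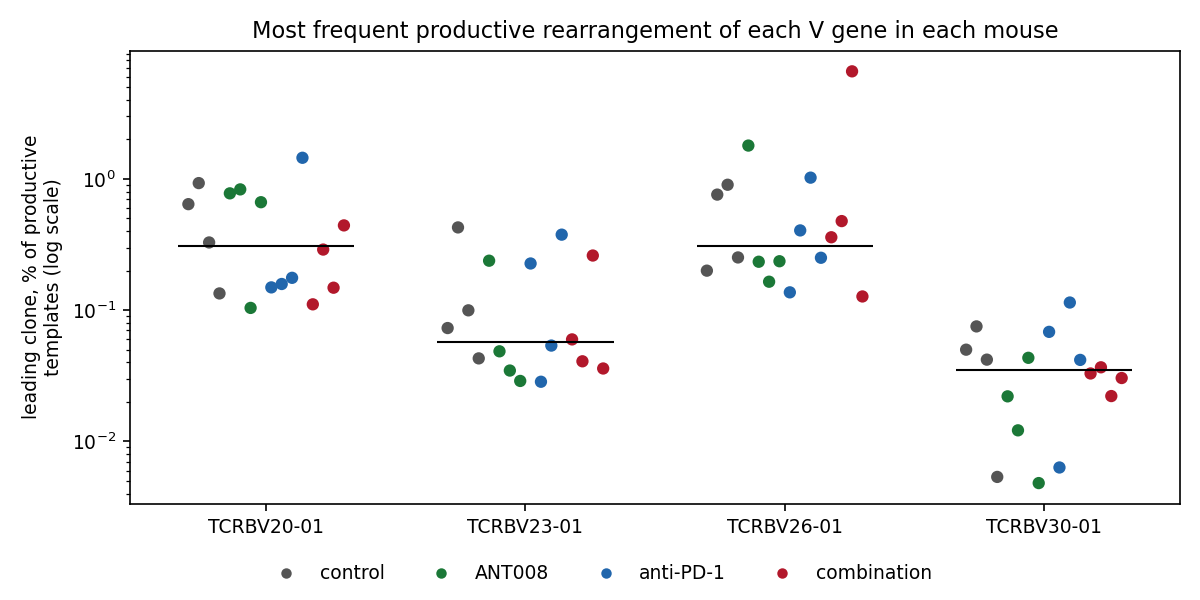
Percent of productive templates taken by the most frequent clone of each V gene in each mouse (y axis, log scale), coloured by group, with the median of 16 mice as a black line. The TCRBV26-01 clone of combination replicate 3 stands highest at 6.60%, and the TCRBV30-01 clones lie at 0.114% or less.

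A TCRBV20-01 clone was among the 10 most frequent clones in 2 mice. In anti-PD-1 replicate 4 the clone with TCRBJ02-07 held 104 templates, 1.45% of productive templates, and was the fourth most frequent clone (rank 4), in the mouse with the fewest productive templates of the series (7180). In ANT008 replicate 2 a clone with TCRBJ01-01 held 274 templates, or 0.832%, at rank 9. The TCRBV30-01 clone of anti-PD-1 replicate 3 held 83 templates, 0.114% of the mouse and 56.5% of the gene. The highest TCRBV23-01 clone held 0.427% of its mouse.

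A TCRBV26-01 clone recurred between mice at larger counts. The CDR3 with TCRBJ02-04 printed above was found in 8 of 16 mice, 2 in each group, and its printed rearrangement was found in 6. That rearrangement held 313 templates in control replicate 2, 117 in combination replicate 2, 74 in anti-PD-1 replicate 2, 19 in ANT008 replicate 3, 2 in combination replicate 3 and 1 in control replicate 4. It was the leading TCRBV26-01 clone of control replicate 2, combination replicate 2 and ANT008 replicate 3. The leading TCRBV26-01 clone of control replicate 3, at 344 templates, used the same J and CDR3 length and differed from it by 2 bases in the 87-base read.
TCRBV26-01 with TCRBJ02-04, control replicate 3: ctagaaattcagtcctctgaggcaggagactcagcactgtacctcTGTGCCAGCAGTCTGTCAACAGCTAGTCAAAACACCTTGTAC
Whether shared rearrangements arose separately in each mouse or passed between libraries was not tested.

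The most shared TCRBV20-01 CDR3 was found in 16 of 16 mice, encoded by 12 different rearrangements, but at low counts of 1 to 8 templates per mouse. The CDR3 sequences of TCRBV20-01 were found in at least 2 mice in 6.65% of cases (208 of 3130) and those of TCRBV26-01 in 6.87% (227 of 3306). The V genes other than the 4 together stood at 7.18%, many of them with more CDR3 sequences read. The other V genes with a like number, 2928 to 3323 distinct CDR3 sequences, stood at 3.83% to 6.26%. These differences were not tested. The shares were 1.49% for TCRBV23-01 (12 of 808) and 2.68% for TCRBV30-01 (8 of 298), genes of which fewer sequences were read. The big TCRBV26-01 clone of combination replicate 3 was found as the same rearrangement in 1 other mouse, at 1 template, and its CDR3 in 3 mice.

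The V gene whose share of unique productive rearrangements correlated most with that of a member across the 16 mice was TCRBV19-01 for TCRBV20-01 (Spearman's rho = 0.76), its neighbour in the locus. It was TCRBV03-01 for TCRBV23-01 (rho = 0.69) and TCRBV05-01 for TCRBV26-01 (rho = 0.79). For TCRBV30-01 the highest value was with TCRBV28-01 (rho = 0.57), which was productive in 2 of 16 mice with 1 rearrangement in each, so it is not read as a likeness. Each is the highest of 32 correlations, the shares come from the same libraries and sum to a whole, and they are given as a description. Between the members themselves rho ran from -0.01 to 0.36.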

How the data were processed

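T cell receptor β rearrangements were surveyed by immunoSEQ (mouse TCRβ, survey level) in magnetically isolated tumor T cells of 16 mice. The authors deposited 1 entry per 87-base rearrangement with its V, D and J genes, reading frame, junction values (bases trimmed or inserted, CDR3 length) and template count, a whole-number count estimated by the service. Read columns were empty and genome build and aligner are not given in the sources used here. Names were matched to GRCm38.p6 symbols (33 of 33). Depth was 7180 to 72588 productive templates; intervals cover counting error only.

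Template counts per V gene were compared with edgeR 4.0.16 (quasi-likelihood, library size fixed at productive templates, all 16 samples in 1 fit, Benjamini-Hochberg over 33 V genes, threshold 0.05). Productive and out-of-frame unique rearrangements were compared with sample as a block. Junctions and J shares (24 V genes with at least 160 unique productive rearrangements) used two-sided sign-flip permutation tests over all 65536 assignments. Dunnett's comparison was made exactly over 10510500 assignments. Alternatives included DESeq2 1.42.0, TMM and leaving out each mouse. Scripts were tested on simulated data. Mice are the replicates. The 4 members, the named J genes (most used, and up to 2 largest differences each way that passed), the most alike V gene and the printed sequences (2 most frequent, most shared) follow fixed rules. Members, lists and tests were chosen with earlier results of these data known.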

Additional observations from a re-analysis of the deposited data

Results flagged for a closer look

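Of 48 groups of 4 mice checked, 3 had 1 mouse far from the other three by Dixon's ratio, where chance flags about 1 in 20 groups. TCRBV23-01 took 0.582% of productive templates in ANT008 replicate 1, against 0.241% to 0.282% in the other ANT008 mice. TCRBV26-01 made up 3.72% of unique productive rearrangements in anti-PD-1 replicate 4, against 2.86% to 2.97% in the other anti-PD-1 mice, and that mouse had the fewest productive templates. TCRBV30-01 took 0.0193% of productive templates in ANT008 replicate 4, which is 4 templates, against 0.121% to 0.134% in the other ANT008 mice.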

How the results depend on the processing

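The lower productive than out-of-frame share of TCRBV20-01, the shorter CDR3 of TCRBV20-01 and TCRBV30-01, and the heavier trimming of TCRBV26-01 kept their direction and side of the threshold in all alternatives run. No treatment comparison of a member passed in any of them. The number of V genes that passed against control became 0 by unique rearrangements in ANT008 and in combination, 0 with the expression filter in combination, and 2 in combination when the 2 groups were fitted alone. With 1 mouse left out it ran from 0 to 2 in ANT008, 0 to 2 in anti-PD-1 and 0 to 3 in combination. For the ratio in ANT008, 1 V gene (TCRBV13-01, named after its value was seen) passed with at least 2 templates. Weighting by templates left 10 V genes for inserted bases and 54 V-J pairs, and out-of-frame rearrangements gave 54 pairs. The cause was not tested.

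Replicate numbers did not pair the mice (median correlation of deviations 0.0114 over 24 pairs, 6 of them over 0.1). With the replicate block, 1, 0 and 1 V genes passed in ANT008, anti-PD-1 and combination, no member did, and TCRBV26-01 in combination stood at 0.85 (log2, edgeR adjusted p = 0.465).

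Values near 0 that turned direction, none past the threshold, follow as log2 fold changes against control. With DESeq2 TCRBV26-01 was -0.055 in ANT008 and -0.18 in anti-PD-1, TCRBV30-01 -0.14 in ANT008, TCRBV20-01 -0.029 in anti-PD-1 and TCRBV23-01 -0.071 in combination. With TMM factors TCRBV30-01 was -0.043 in ANT008, TCRBV20-01 -0.091 and TCRBV26-01 -0.21 in anti-PD-1, and TCRBV23-01 -0.20 in combination. Without leading clones TCRBV26-01 was -0.042 in ANT008 and -0.12 in anti-PD-1. By the exact Dunnett form TCRBV30-01 was -0.039 in ANT008. By unique rearrangements TCRBV30-01 was -0.050 in anti-PD-1, and TCRBV20-01, TCRBV23-01 and TCRBV26-01 were 0.026, -0.062 and -0.060 in combination. With 1 mouse left out, TCRBV23-01, TCRBV26-01 and TCRBV30-01 ran from -0.70 to 0.52, -0.29 to 0.35 and -0.27 to 0.37 in ANT008. In anti-PD-1 TCRBV20-01 ran from -0.19 to 0.43 and TCRBV26-01 from -0.10 to 0.21, and in combination TCRBV20-01 from -0.37 to 0.079 and TCRBV23-01 from -0.24 to 0.86.

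For productive against out-of-frame rearrangements with at least 2 templates, TCRBV23-01 was 0.038 and TCRBV26-01, which had passed, was 0.081. With 1 mouse left out TCRBV23-01 ran from -0.074 to 0.059. For the ratio by treatment, templates gave -0.57 for TCRBV26-01 in ANT008 and -0.65 for TCRBV23-01 in anti-PD-1, and at least 2 templates gave 0.015 for TCRBV26-01 in anti-PD-1. With 1 mouse left out the ratio of TCRBV23-01 ran from -0.29 to 0.11 and of TCRBV30-01 from -0.48 to 0.40 in ANT008. It ran from -0.16 to 0.026 for TCRBV20-01, -0.11 to 0.051 for TCRBV26-01 and -0.76 to 0.12 for TCRBV30-01 in anti-PD-1, and from -0.42 to 0.058 for TCRBV23-01 and -0.45 to 0.43 for TCRBV30-01 in combination. With at least 2 templates the CDR3 difference of TCRBV23-01 was -0.067 bases and its inserted-base difference 0.042. By templates the inserted-base difference was 0.19 for TCRBV23-01 and 0.048 for TCRBV20-01, and the TCRBJ02-01 difference of TCRBV20-01 was 0.52 points. In out-of-frame rearrangements the TCRBJ01-06 difference of TCRBV30-01 was 0.17 points. The TCRBJ02-07 difference of TCRBV26-01 ran from -0.68 to 0.31 points with 1 mouse left out. Leaving out J genes under 1% was chosen after seeing the data. Depth limited TCRBV30-01 most, at 4 to 36 unique productive rearrangements per mouse.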
